A study of Mus musculus with 2 samples.

Results

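A short stretch of mouse chromosome 5 beside the junctions matched to the mucin gene Muc3 held the densest set of splice junctions of its kind in the colon. The members described here are 18297 junctions on chromosome 5 of the mm9 genome build that lie wholly between positions 137000000 and 138000000 and carry the tag A=0 in the deposited junction file, of 402639 junctions in all. They were chosen by their density, which makes their number a description and not a finding. The next densest windows of 1 Mb held 2769 such junctions (chromosome 3 from 92000000) and 1966 (chromosome 10 from 79000000), and the median over 2555 windows with at least 1 was 33. At the edges the choice makes no difference to the account. The first member (137012736 to 137222648) and the last (137970404 to 137995784) had 1 read each, as did the nearest A=0 junction just outside each edge (136996078 to 137018154, and 137974553 to 138003610).

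Polyadenylated RNA was sequenced from the colon (large intestine) of adult C57BL/6J mice aged 8 weeks, with no treatment or genetic change given in the labels. Per the labels, tissue of male and female littermates was pooled, and a single donor record stands behind both libraries. There were 2 libraries of 1 group, so no conditions are compared, and every difference between R1 and R2 below is one between these libraries. The libraries were stranded and read at 76 nt from both ends.

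Membrane mucins such as Muc3 are large glycoproteins anchored in the surface of the epithelial cells that line the gut, where they form part of the coat on the microvilli. Their extracellular part holds long tandem repeats rich in serine, threonine and proline, to which sugar chains are attached. Gel-forming mucins such as Muc2 are instead secreted by goblet cells and build the mucus layer.

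The repeat that this gene carries can be seen in its annotated transcript. The first exon of the principal Muc3 transcript in the GENCODE vM21 annotation spans chr5:137149137-137149322 on the minus strand of mm10 and has 186 bases. Read in steps of 18 bases from the start of the transcript, it gave 10 units, of which 9 were kept because at least 12 bases equalled the commonest base at each place. The step of 18 bases was fixed with the spacing of the junctions known, and no other length was tried on this exon. The units are therefore no separate finding of that length. The frame was the one of best agreement. The units are shown because 18 bases is also the step in the spacing of the junctions. Capitals mark the bases equal to the consensus, all read 5′ to 3′ along the transcript.

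consensus: CTGCTGATGTCACCACCA
unit 1: CTGCaGATGTCACCACaA
unit 2: CaGCTGATGTCACaACCA
unit 3: CTatTGATGTCACCACaA
unit 4: CgGCcGATGTCACCACtt
unit 5: CTGCTGAaGTaACCACCA
unit 6: CTGCTGATGTCACCACCA
unit 7: CTaCTGAaGTtACaACCA
unit 8: CTaCaGAaGTtgCCACCA
unit 9: CTcCTGAgccCACtACCA

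The kept units matched the consensus at 13 to 18 of 18 bases, with a median of 15. The consensus was built from these same units, so the matches describe them and do not test the unit. Shifted against itself by 18 bases over windows of 54 bases, this transcript matched at up to 83.3% of bases. The median of the same best match over 140880 annotated transcripts was 44.4%, and 1892 of 54498 genes (3.47%) reached 80%, so Muc3 is not alone in this. Its neighbour Muc3a, a second mucin gene, reached 79.6%, and Gm3054, a noncoding RNA gene annotated beside them, reached 31.5%. Each value is the highest over all windows of a transcript. Longer transcripts offer more windows, and length was not accounted for. The exon sequence is that of mm10. No sequence was read at the mm9 positions of the members.

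Both libraries expressed the markers of the labelled tissue. All 10 colon epithelium markers on the list exceeded 1 TPM (transcript abundance per length, scaled to a fixed total in each library) in both libraries and summed to 38904 TPM in replicate 1 and 44348 TPM in replicate 2. The libraries differed in another way, since 5 pancreatic acinar markers summed to 26.2 TPM in replicate 1 and 27841 TPM in replicate 2. Against the label of pooled sexes, replicate 1 had 0 counts over 4 Y-linked genes and 8721 of Xist, and replicate 2 had 1382 and 12. The gene tables held 46689262 expected counts in replicate 1 and 45966841 in replicate 2. The junction file held 37359010 reads across junctions, 18301894 under the name R1 and 19057116 under R2, and does not say which of these is which replicate. Whether the difference in acinar RNA plays a part in any difference between R1 and R2 below was not tested.

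Nearly all members lay in a pair of dense blocks that together make up 0.346% of the window. The lower block ran from 137625307 to 137627507 (2201 bases) and the upper block from 137632670 to 137633929 (1260 bases). A block was defined, after the data were seen, as a run of at least 500 distinct intron ends with neighbours at most 100 bases apart, and the next largest run had 67. In the lower block 1995 of the positions, 90.6%, served as an end of at least 1 member, and in the upper block 1077, or 85.4%. In the 5162 bases between the blocks there was not 1 member end. Counted in bins of 10 kb by their start, the members peaked at 13808 and 3674 in neighbouring bins, and the third highest bin held 57.

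**Figure D1:**
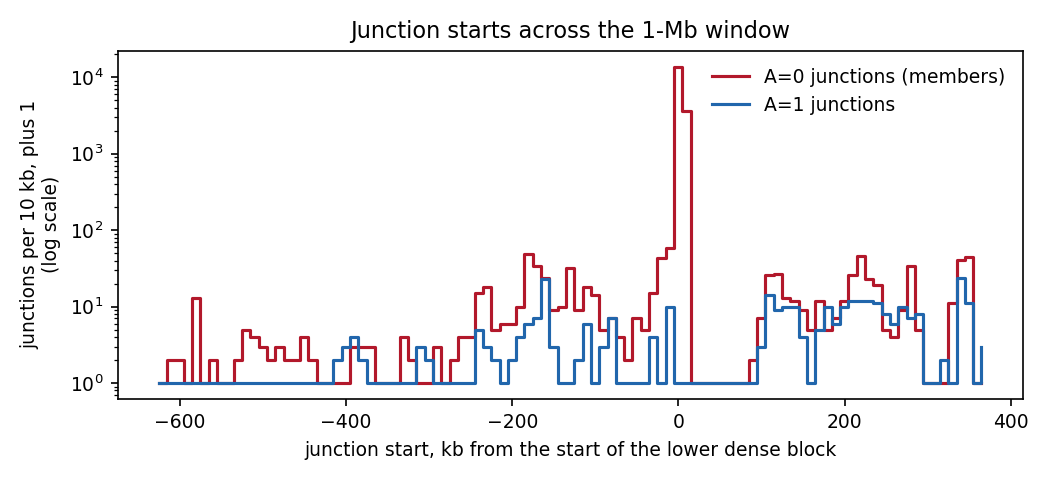
Number of junctions per 10 kb by the position of their start, in kb from the start of the lower dense block, with 1 added and on a log scale. The A=0 junctions (members, red) peak at 13808 in 1 bin and 3674 in the next, while the A=1 junctions (blue), 266 in all, follow the genes of the window.

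Of the members, 16893 (92.3%) had both ends in the blocks, and these carried 1307135 of the members' 1321776 reads (98.9%). Within the lower block lay 6346 members with 222024 reads and a median intron length of 486 bases. Intron length here is the number of bases that the file gives between the ends of a junction. Within the upper block lay 3365 members with 298873 reads and a median of 270 bases. The remaining 7182 joined the lower to the upper block, with 786238 reads and a median of 7038 bases. Members joining the blocks thus held more reads than both other kinds together.

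**Figure D2:**
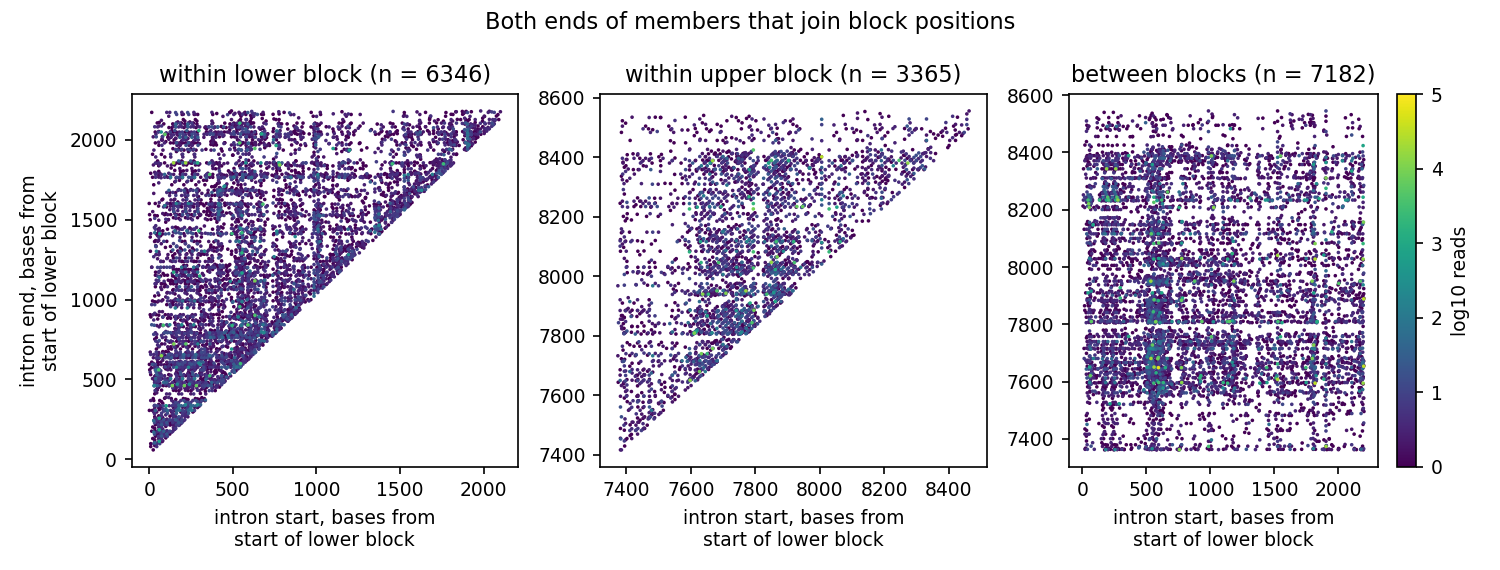
Intron start (x) and intron end (y) of each member with both ends in the blocks, in bases from the start of the lower block, coloured by log10 of its reads; the panels show 6346 members within the lower block, 3365 within the upper block and 7182 between them. Starts and ends are spread over nearly the whole of each block, with bands where 1 position has many partners.

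The reads were unevenly divided among the members. A single read supported 7295 members (39.9%), the median was 2 reads, and 173 members had at least 1000. The highest member held 5.14% of all member reads, the 10 highest 22.4%, the 100 highest 78.5% and the 1000 highest 95.6%. Together the members held 39.5% of the reads of all A=0 junctions in the file and 3.54% of all junction reads. Within the window they held 90.8% of junction reads (95% exact binomial interval 90.7 to 90.8, which covers counting error only), and the 266 A=1 junctions held the remaining 134242 reads.

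The member with the most reads joined the blocks from 137625902 to 137632956, with an intron of 7055 bases, 28249 reads in R1 and 39622 in R2. The second, from 137627126 to 137632902 (5777 bases), had 14427 reads in R1 and 17825 in R2. The next in rank both started at 137627506, next to the upper edge of the lower block. They ended at 137632961 with 10753 and 19942 reads in R1 and R2, and at 137633196 with 10595 and 19911. R2 was the higher library in all 4.

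The fifth, from 137633313 to 137633708, lay within the upper block with an intron of 396 bases, 11911 reads in R1 and 15359 in R2. The sixth (137627126 to 137633335), the seventh (137626833 to 137632915), the eighth (137625844 to 137632988) and the tenth (137625868 to 137632958) joined the blocks and had 18790 to 26590 reads. The ninth, from 137625453 to 137627162 (1710 bases), lay within the lower block and had 19263 reads. Of the 10 members with the most reads, 8 therefore joined the blocks.

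A few positions collected many partners. Block starts had a median of 4 partners and block ends also 4, and both reached 94 over members within or between the blocks. Over all members, the start with the most was 137625853 with 98 partners but 3708 reads, followed by 137626293 (82), 137625364 (65), 137625866 (63) and 137626833 (60 partners, 43006 reads). The end with the most was 137633665 with 94 partners and 2229 reads, followed by 137633117 (84), 137633687 (82), and 137633423 and 137633021 (80 each). Ranked by reads instead, the leading start was 137625902 with 72132 reads over 52 partners, and the leading end 137632956 with 89980 reads over 45. Of the positions named by partners, the start 137626833 was also among the 5 starts with the most reads.

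Almost all members were on the minus strand, which is the strand of Muc3. Of 18297 members 17845, or 97.5% (95% exact binomial interval 97.3 to 97.7), and 99.9% of their reads were on it. The interval takes members as independent, which they are not, since they share ends and reads. Of the 230254 A=0 junctions outside the window 48.5% were on the minus strand. Of the 452 members on the plus strand 275 had both ends in the blocks. These 275 had 441 reads in all and at most 8 each, and 53 of them shared both ends with a minus-strand member. Members with no end in a block were less one-sided, at 74.3% minus.

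Intron lengths fell on a ladder with steps of 18 bases, the step also used for the units printed above. A whole multiple of 18 was the length of 71.2% of members within the lower block and of 92.6% of their reads. Between the blocks it was 42.9% of members and 44.9% of their reads, and within the upper block 35.1% and 51.7%. The same share was 6.11% for A=0 junctions outside the window and 5.61% for A=1 junctions of the whole file, where an even spread of lengths would give 5.56%. The lengths that occurred most often among members with both ends in the blocks were 54 bases (240 members), 36 (218), 72 (211) and 90 (202).

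Neighbouring partners of a shared end showed the ladder too. Of the distances between them 60.4% were whole multiples of 18, and among units from 3 to 400 bases 18 gave the highest share relative to an even spread (10.9 times). The commonest single distance was 18 bases, with 4792 cases, followed by 36 with 2429 and 54 with 2204. Among the intron lengths of all members 36, 54 and 18 came out nearly level, at 8.82, 8.81 and 8.73 times an even spread. For A=1 junctions of the file the leading unit was 3, at 1.09 times. Distances and lengths share ends and reads, so these shares have no error over replicates.

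The ladder was present in members with many reads and with few. The share at a multiple of 18 was 41.9% of single-read members, 50.6% of those with 2 to 9 reads, 62.2% from 10 to under 100, 60.8% from 100 to under 1000 and 61.3% with at least 1000. In A=0 junctions outside the window it stayed between 4.64% and 6.18% over the same bins. A removed intron, and a read placed with a gap of whole repeat units, would be written as the same kind of line in the file, and which of these the members record was not tested.

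**Figure D3:**
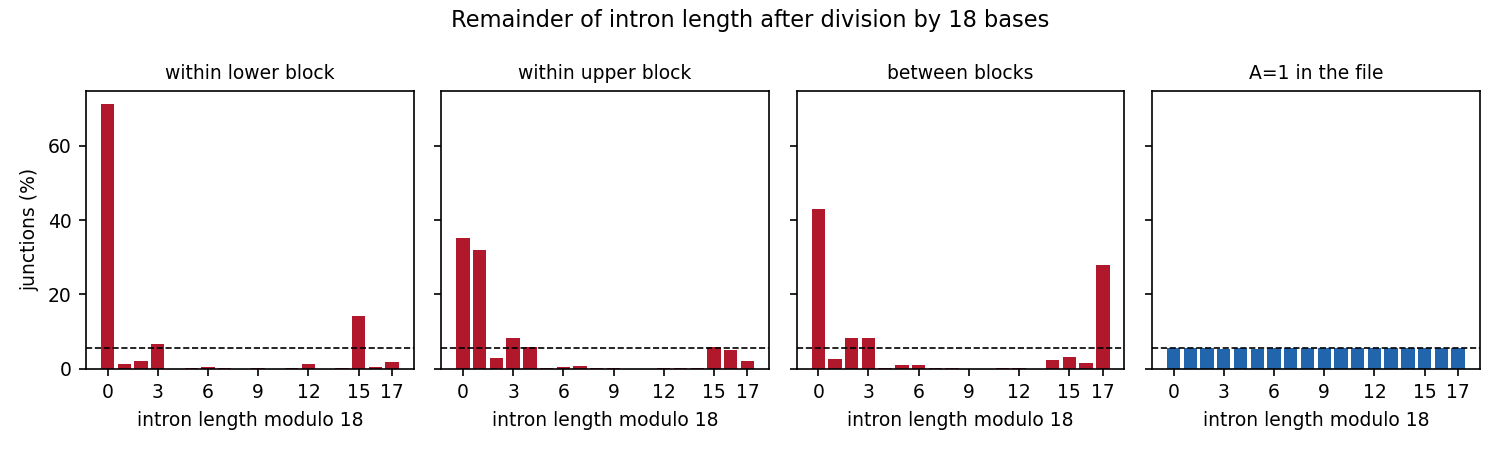
Percent of junctions by the remainder of the intron length after division by 18 bases, for members within the lower block, within the upper block and between the blocks (red) and for the A=1 junctions of the file (blue). The dashed line is the even share of 5.56%; the tallest bars are remainder 0 within the lower block (71.2%), 0 and 1 within the upper block (35.1% and 31.9%) and 0 and 17 between the blocks (42.9% and 27.9%), while the A=1 junctions are flat.

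The ladder changed its register at fixed positions. Between the blocks, members ending at or below position 137633100, 431 bases into the upper block, had lengths 1 base short of a multiple of 18 (remainder 17) in 65.8% of 2928 cases and 86.7% of their reads. Members ending above it had remainder 0 in 71.1% of 4254 cases and 83.8% of their reads. Position 137633100 was picked because it separated the remainders best, so these shares describe the division and do not test it.

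Members within the upper block, which were not used to place that position, also differed by side. With both ends on the lower side, 66.7% of 456 members were at remainder 0 and 1.32% at remainder 1, and 99.1% of their reads were at 0. With both ends on the upper side, 61.3% of 1332 were at 0 and 6.46% at 1, but by reads these were 75.7% and 21.5%. Across the position, 3.81% of 1577 were at 0 and 62.3% at 1, and 85.9% of their reads were at 1. They share ends and the genome sequence with the members between the blocks and are not independent of them. A second change was placed in the lower block at 137627314, 2008 bases from its start. This position too was picked because it separated remainders 0 and 3 best, so the next shares describe the division and do not test it. Among members ending above the first change, the remainder was 0 in 76.2% of 3957 starting at or below it and 3 in 79.1% of 297 starting above it, which held 66144 reads.

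Members with fewer than 2 ends in the blocks were many in kind and few in reads. In 789 members 1 end lay in a block, at a median intron length of 177830 bases, and 451 different far ends together had 11303 reads. Their intron lengths were multiples of 18 in 6.59% of cases. Members that shared a far end were nonetheless spaced by the ladder, since 202 of 335 distances between their neighbouring block ends (60.3%) were multiples of 18. The far end 137445961 alone held 5619 of these reads over 14 members, 5458 of them in the junction to 137632956, which is also the leading end inside the upper block. It lay inside the span of the junctions matched to Cldn15, a claudin of the tight junctions between epithelial cells, but that gene is on the plus strand and no A=1 junction used this end.

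The far end 137634753, 824 bases above the upper block's edge, held 3217 reads. A single junction, 137633930 to 137634753, had 3215 of them. Its first base follows the last base of the upper block, and it was counted as touching the block because an end was placed by the boundary between bases. It alone set that edge. Members with both ends in the blocks reached no further than 137633862, and without this junction 788 members with 8088 reads had 1 end in a block. The far ends 137496531 and 137496526 held 456 and 340 reads and lay in no matched gene. The far ends 137811259 and 137811257 held 200 and 100 and lay inside the span of Ephb4, a receptor tyrosine kinase gene, again on the plus strand. The 615 members with no end in a block had 3338 reads, and their highest had 305 (137737321 to 137737445).

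The extremes of length held few reads. The 5 longest introns were 489133 to 599616 bases, all with 1 read, and 3 of them had no end in a block on either side. The 5 shortest were 31 to 33 bases, with 2 to 6 reads, all within a block; 31 bases was also the shortest intron in the whole file. The 765 members over 100 kb came from outside the pair of blocks at 1 end or both, since the longest with both ends in them was 8478 bases.

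Both libraries held the members with many reads. Reads in R1 and in R2 were present for 29.8% of members, against 13.8% of A=0 junctions outside the window. Within bins of reads the shares were 37.8% against 23.2% at 2 to 9 reads, 93.3% against 92.9% from 10 to under 100, 99.4% against 98.2% from 100 to under 1000 and 100% against 99.5% at 1000 or more. All 173 members with at least 1000 reads were thus seen in both.

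Reads of the members were fewer in R1 than in R2. R1 held 534722 of them and R2 787054, or 40.5% in R1 (95% exact binomial interval 40.4 to 40.5), against 49.0% of all junction reads, 49.2% of the window's A=1 reads and 47.8% of A=0 reads outside the window. The share was 40.4% within the lower block, 40.3% within the upper block and 40.5% between them. R2 exceeded R1 in 338 of the 354 members with at least 100 reads. Over these 354 members the Spearman correlation of R1 and R2 was 0.98, as a description, since members share ends and reads.

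Each junction was tested with a two-sided exact binomial test against the R1 share of all junction reads, with Benjamini-Hochberg adjustment over the 120859 junctions of the file that had at least 10 reads. Calls needed an adjusted p no higher than 0.05 together with a ratio of 2-fold or more. The ratio was that of R1 to R2 relative to the same ratio over all junction reads. The test compares 2 libraries and covers counting error only, with no replicate of either. In the whole file 10.3% were called, 4.86% higher in R1 and 5.48% higher in R2. Of 2275 members tested 364 (16.0%) were called, 54 higher in R1 and 310 higher in R2. The members' median log2 ratio was -0.54 on that relative scale. Among A=0 junctions outside the window 19.5% were called, more than among the members, and 12 of 238 A=1 junctions of the window.

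None of the 10 members with the most reads passed the 2-fold requirement. The largest log2 ratios among them on the same relative scale, -0.85 and -0.83, belonged to the pair that start at 137627506. Without that scaling the log2 ratios of R1 over R2 of this pair were -0.91 and -0.89. The 5 members with the largest ratios all had 0 reads in R1. They were 137625364 to 137632904 with 149 reads in R2, 137625364 to 137633337 with 96, 137626681 to 137626842 with 79, 137626750 to 137633337 with 76 and 137626586 to 137632920 with 68, with adjusted p-values from the same exact test between 8.2e-42 and 1.72e-18.

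Those 5 shared some positions that R1 read often and some that it hardly read. The start 137625364 had 65 partners with 1701 reads in R1 and 2601 in R2, and the end 137633337 had 75 with 5907 and 8402. The start 137626586 had 3 reads in R1 and 75 in R2 over 10 partners, of which 7 had 0 in R1, and the end 137626842 had 19 and 97. Of the 2275 members with at least 10 reads 100 had 0 in R1 and 29 had 0 in R2, where the highest had 24 reads. Together these made up 5.67%, beside 6.41% of A=0 junctions outside the window with at least 10 reads.

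**Figure D4:**
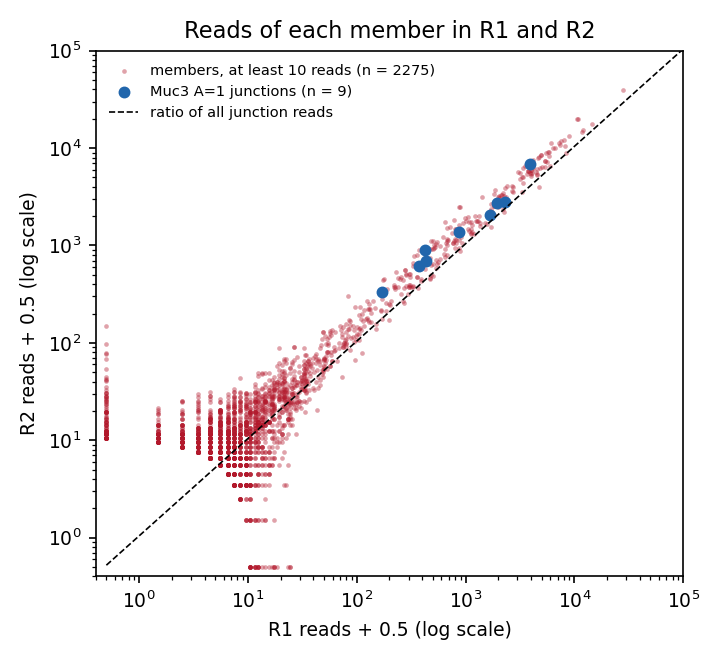
Reads of each member in R1 (x) and R2 (y), with 0.5 added and on log scales, for the 2275 members with at least 10 reads (red) and the 9 A=1 junctions of Muc3 (blue). The dashed line is the ratio of all junction reads; above 100 reads most red points and all 9 blue ones lie on its R2 side.

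The A=1 junctions beside the blocks belong to Muc3. No mm9 annotation was used, and genes were named from runs of at least 3 introns in a row whose lengths, with the exons between them, equalled those of a GENCODE transcript. This matched 254 of the 266 A=1 junctions to 18 genes. Muc3 was matched by 8 introns (137611356 to 137619764) identical in length to introns 3 to 10 of the principal Muc3 transcript, and a further A=1 junction (137619887 to 137622504) had 2618 bases, where intron 2 has 2617. The lower block began 2802 bases beyond it. In mm10 exon 1 of that transcript begins 2503 bases beyond intron 2, so the block was not identified with that exon, and no position was converted between the builds.

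RefSeq draws Muc3 longer than GENCODE does. In mm10 its gene record spans chr5:137134924-137166048, 31125 bases. It overlaps nearly all of both GENCODE's Muc3 (chr5:137134922-137149322) and Gm3054 (chr5:137154029-137166070). The record runs on beyond GENCODE's Muc3 on the upper side, the side on which the blocks lie in mm9. Whether the blocks fall inside this longer record was not tested, since no position was converted between the builds.

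The 9 A=1 junctions of Muc3 had 502 to 10773 reads, with a median of 2254 and a sum of 30455. Members with both ends in the blocks held 42.9 times that sum, and the highest member 6.30 times the reads of the highest Muc3 junction. Whether a read was counted in more than 1 member was not tested. Of the reads of these 9 junctions 39.6% were in R1, beside 40.5% of member reads, and in each of the 9 R1 was the lower library, at 32.4% to 45.1%. Few members linked the annotated stretch to the blocks. There were 3 that started along the A=1 junctions and ended in a block, with 1 read each. Another 12 started between the last A=1 end and the lower block, with 16 reads, and 4 of these ended in a block.

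Contigs, the stretches that the authors called as continuously transcribed, covered both blocks and not the space between them. The contig over the lower block (137625299 to 137627507) had a deposited signal level of 5130 and the contig over the upper block (137632670 to 137634058) 5670, which ranked 5 and 4 among 562412 contigs, where the median level was 0.228. Contigs along the 9 A=1 junctions of Muc3 on the same strand reached 348 (137622009 to 137622765), 287 (137610618 to 137611453) and 34.7 (137611653 to 137621294). The contig above the upper block reached 85.4. No contig lay between the blocks, and none on the plus strand overlapped their span. The unit of this level is not given.

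**Figure D5:**
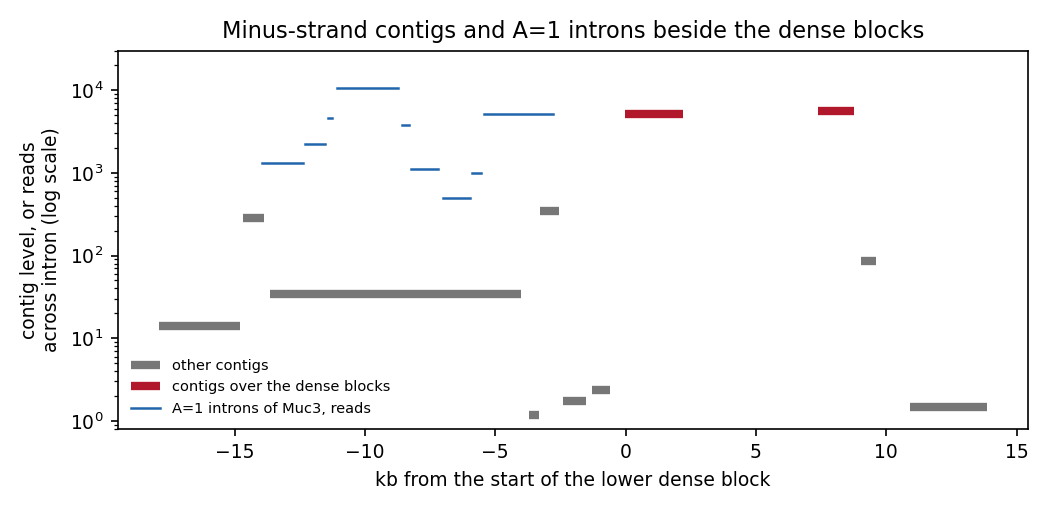
Deposited signal level of minus-strand contigs (thick lines, red over the dense blocks, grey elsewhere) and reads across the 9 A=1 introns of Muc3 (thin blue lines) by position in kb from the start of the lower block, on a log scale. The 2 block contigs, at 5130 and 5670, stand above all other contigs shown, of which the highest is at 348.

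Muc3 was among the highest of the 18 genes matched in the window. It had 880.7 TPM in replicate 1 and 1132.4 in replicate 2 (1006.5 ± 178, SD, n = 2), second to Gnb2, a G protein subunit, at 1631 and 1169 TPM. Gm3054, which was not matched by introns, was above Muc3 in both libraries, at 1380 and 1813 TPM. The other 16 matched genes had mean levels of 1.05 to 167 TPM, with Cldn15 at 167, Fis1, a mitochondrial fission factor, at 147 and Znhit1 at 94.4. Next came Ephb4 at 76.7, Ap1s1 at 68.9, Plod3 at 42.4, Srrt at 30.7 and Trip6 at 30.3 TPM. Ache, Slc12a9 and Zan lay at 22.2, 22.1 and 21.6 TPM, and Gigyf1 at 23.7 in replicate 1 and 24.3 in replicate 2. Ift22 had 12.6, 4933404O12Rik 1.39 and Col26a1 1.05 TPM, the last from 0.25 in replicate 1 and 1.84 in replicate 2.

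The expected counts of Muc3, 51899 in replicate 1 and 66242 in replicate 2, were far below the reads of the blocks. Members with both ends in the blocks had 11.1 times as many reads as these counts together. The files differ in build and method, and whether a read counts in more than 1 member was not tested. The ratio therefore sets totals side by side and does not measure a loss. Muc3a had 176 and 130 TPM, lower in replicate 2 where Muc3 was higher. Gm3054 reached its TPM from 2772 and 4282 expected counts, because the authors' effective length for its transcript was 54.9 and 65.5 bases, so that few reads give a high TPM. Whether these genes share reads was not tested.

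Among the mucins of the colon Muc3 was neither the highest nor a minor member. Of 10 membrane mucins listed 7 were matched, and 5 reached 1 TPM in both libraries. Muc13, a membrane mucin of the gut, had 1472 and 968 TPM, Muc4 87.5 and 126, Muc1 23.3 and 24.6, and Muc20 and Muc15 at most 0.36. Of 5 gel-forming mucins Muc2, the main mucin of colonic mucus, had 8861 and 11591 TPM, and Muc5ac, Muc5b, Muc6 and Muc19 at most 0.26. Muc3, Muc4 and Muc2 were each higher in replicate 2, and Muc13 and Muc3a in replicate 1. With 1 group of 2 libraries none of these differences has a test.

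The next densest windows did not show the ladder to the same degree, a difference with no test. The A=0 junctions of chromosome 3 from 92000000 also kept to 1 strand, with 1.48% on the minus strand, and 10.3% of their lengths were multiples of 18, beside 48.5% of members. Multiples of 54 made up 4.44% of their lengths, where an even spread would give 1.85%, beside 16.3% of members. The leading unit was not searched for in these other windows. On chromosome 10 from 79000000 the share was 5.29%, and 35.6% were on the minus strand. By reads, the next A=0 windows were chromosome 12 from 114000000 with 161004 reads and chromosome 2 from 118000000 with 81130, beside 1321776 for the members.

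The junction names carry a second tag, C. C=1 was carried by 4.37% of members, 34.1% of A=0 junctions outside the window and 99.7% of A=1 junctions, and the file does not say what A and C stand for. Within the blocks the 539 members with C=1 held 20.9% of the reads, at a median of 5 reads against 2 for C=0. A multiple of 18 was the length of 58.1% of the former and 51.8% of the latter. Members with no end in a block carried C=1 in 38.4% of cases.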

How the data were processed

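The deposited junction file gives read counts across each junction, with the sum in 1 column and the libraries' counts as R1 and R2 in the name, and the contig file gives a signal level, both on mm9 and deposited by the authors for both libraries together. Per gene and per transcript, the authors deposited expected counts, TPM and FPKM on mm10, with 1 table for each library. For the aligner and the junction and contig callers, the sources used here give no name.

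Members were taken by position and by the tag A=0, with positions printed counting from 1. Members, lists and tests were chosen with earlier results of these data known. The binomial test used all junctions with at least 10 reads, with 0.5 added to each count for log2 ratios, and was tested on simulated data. Intervals are exact at 95% and cover counting error only, and that of the strand share takes members as independent. Named junctions are the 10 with most reads, the 5 longest, shortest, most used starts and ends, the 5 largest library ratios with at least 10 reads and the neighbours of the window's edges; named genes are those matched in the window, of which 1 is not reported here, and 2 mucin lists. Gene counts and TPM were used as deposited. Alternatives varied the minimum of reads, the weighting, the library and the distances used. Python 3.11.15, scipy 1.17.1, pandas 2.3.3 and matplotlib 3.10.9 were used.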

Additional observations from a re-analysis of the deposited data

How the results depend on the processing

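The number of members fell from 18297 to 11002, 4612 and 2275 with at least 2, 5 and 10 reads and to 5444 with reads in both libraries, and with R1 or R2 left out it ranged from 9911 to 13830. Splitting members at gaps of 5, 10 or 20 kb left all in 1 cluster, since long introns bridge the window, and the dense blocks were defined after seeing the data. The median intron length was 1026, 936 and 1080 bases at those minimums of reads, 5781 when weighted by reads, and 1206 to 1242 with a library left out. The minus-strand share was 98.4%, 99.4% and 99.5% at those minimums, 99.9% by reads, and 97.7% to 98.2% with a library left out. The share of members in both libraries rose to 49.5%, 81.3% and 94.3% at those minimums. Scaling to all junction reads or to A=1 reads moved the R1 share of member reads to 41.4% or 41.0%. Members called as differing between R1 and R2 numbered 210 of 1168 (17.98%) with at least 20 reads, beside 10108 of 94721 in the whole file. With at least 5 reads they numbered 406 of 4612 (8.80%), beside 12609 of 157398 in the whole file. At any fold they numbered 589 (25.9%), beside 28398 of 120859 (23.5%) in the whole file. The leading unit was 36 for intron lengths, 215 for neighbouring distinct starts and 392 for neighbouring distinct ends, where nearly every position is used. The share of distances at a multiple of 18 was then 48.5%, 0.821% and 1.24%. It was 64.9% and 73.6% with at least 2 and 5 reads, and 62.5% to 64.3% with a library left out, an alternative chosen after seeing the data. The median level of the matched genes was 30.5 TPM, 30.2 as posterior mean and 23.9 in FPKM, and 30.4 to 30.5 TPM with a replicate left out. Muc3 made up 26.7% to 37.2% of their summed TPM with a replicate left out. The cause of these changes was not tested. Runs of 2 or 4 introns matched 20 and 17 genes. No paired analysis was possible because there is 1 group.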
